A study of Mus musculus with 2 samples.

Results

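A set of 36 genes of glucose breakdown and of the response to low oxygen was followed, matched by symbol among the 27998 genes of both count tables, and all 36 were found. They fall into 7 roles: transport of glucose and lactate (Slc2a1, Slc2a3, Slc16a3), hexokinases (Hk1, Hk2, Hk3), the phosphofructokinase step (Pfkl, Pfkp, Pfkm, Pfkfb3, Pfkfb4), middle and lower glycolysis, where the early enzyme Gpi1 is also counted (Gpi1, Aldoa, Aldoc, Tpi1, Gapdh, Pgk1, Pgam1, Eno1, Eno2, Pkm), the fate of pyruvate (Ldha, Pdk1), oxygen sensing (Hif1a, Egln1, Egln3) and other target genes of hypoxia-inducible factor (Bnip3, Bnip3l, Hilpda, Vegfa, Adm, Ankrd37, Ndrg1, P4ha1, P4ha2, Mif). Their RNA was counted in single CD45+ cells sorted from subcutaneous tumours of C57BL/6J mice aged 6 to 8 weeks, either wild type (WT) or lacking CD94 (CD94-KO). Each genotype gave 1 library, derived from 5 tumour-bearing mice. CD94, encoded by Klrd1, is a receptor chain of NK cells and some T cells. The tumour line and how the CD94-KO allele was made are not given in the sources used here.

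Glycolysis splits glucose into pyruvate and yields ATP without oxygen. When oxygen is scarce, prolyl hydroxylases such as Egln1 and Egln3 no longer mark the transcription factor HIF-1α for destruction, and it raises transporters, glycolytic enzymes, Ldha and genes such as Vegfa and Bnip3. In macrophages the same factor also responds to inflammatory signals, and glycolysis is known to rise when macrophages are activated. Arg1, encoding arginase, and Nos2, encoding inducible nitric oxide synthase, mark contrasting macrophage states, and Cxcl9 is a chemokine induced by interferon gamma.

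HIF-type factors recognise a short core in DNA, so the 250 bases before the RefSeq start of each gene were searched for ACGTG or GCGTG on either strand (build GRCm38.p6). The first core is also the end of the palindrome CACGTG, which other factors bind, so a match is a description of the letters and not a binding site. Of the 36 genes, 33 had an entry, and 29 of these (87.9%) held a match before at least 1 listed start, against 62.9% of 7862 genes tested in macrophages and 41.5% of all 27025 genes with an entry. A gene with several listed starts had more chances to match, and the sets were not matched for number of starts. Hilpda, Vegfa and Pkm, for example, each had a listed start without a match. The promoters of 4 genes with 1 listed start are shown because their genes moved in opposite directions between the macrophage states described below, Egln3 and Bnip3 up and Hk2 and Hk3 down in the Arg1-high state. They are written 5′ to 3′ on the gene's strand, ending at the base before the start, with matches in capitals.
Egln3, chr12:54203875-54204124, minus strand: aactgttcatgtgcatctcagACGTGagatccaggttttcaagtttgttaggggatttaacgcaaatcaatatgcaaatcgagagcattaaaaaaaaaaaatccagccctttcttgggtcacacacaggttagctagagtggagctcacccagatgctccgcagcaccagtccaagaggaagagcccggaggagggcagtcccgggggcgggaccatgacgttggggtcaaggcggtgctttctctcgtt
Bnip3, chr7:138909507-138909756, minus strand: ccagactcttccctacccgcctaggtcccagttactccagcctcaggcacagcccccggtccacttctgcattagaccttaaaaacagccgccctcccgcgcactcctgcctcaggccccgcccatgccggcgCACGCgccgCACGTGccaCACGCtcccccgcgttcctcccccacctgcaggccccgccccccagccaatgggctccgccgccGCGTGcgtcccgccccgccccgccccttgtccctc
Hk2, chr6:82774455-82774704, minus strand: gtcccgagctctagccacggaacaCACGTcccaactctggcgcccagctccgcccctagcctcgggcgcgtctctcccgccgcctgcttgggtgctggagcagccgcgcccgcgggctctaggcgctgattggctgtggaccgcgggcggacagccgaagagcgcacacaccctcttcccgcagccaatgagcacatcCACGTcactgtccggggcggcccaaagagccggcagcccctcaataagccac
Hk3, chr13:55021386-55021635, minus strand: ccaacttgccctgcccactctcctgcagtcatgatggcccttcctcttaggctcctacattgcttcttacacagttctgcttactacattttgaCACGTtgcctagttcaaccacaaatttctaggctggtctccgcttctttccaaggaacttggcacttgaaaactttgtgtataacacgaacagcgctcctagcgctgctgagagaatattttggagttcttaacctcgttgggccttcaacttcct
Both directions carried the core: 4 of 5 genes called higher in that state, 5 of 5 called lower and 19 of 21 not called held a match.

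The WT library kept 4388 cells with 36482364 unique molecular identifiers (UMIs, each 1 counted RNA molecule) and the CD94-KO library 4574 cells with 42210515. Median depth differed, at 4768.5 and 7799 UMIs per cell, and 4 kept barcodes were shared by both libraries. Cells were classed by raw UMIs of marker genes, and 11 non-overlapping classes had at least 50 cells in both libraries. Barcodes without enough marker UMIs made up 48% of WT and 28.2% of CD94-KO cells, so the classes describe the better covered part of each library. Levels are given as CPM, a gene's UMIs over all UMIs of the class, scaled to a common total, with 95% intervals that cover counting error only. Klrd1, the targeted gene, stood at 699.6 CPM in WT and 336.7 CPM in CD94-KO NK cells, so transcripts are still counted there. Whether the counted 3′ end lies in the deleted stretch is not known.

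Macrophages and monocytes held the most RNA of these genes among the classes with at least 50 cells in both libraries. The 36 genes together took 13138 CPM of macrophage RNA in WT and 13633 in CD94-KO. Monocytes stood at 10963 and 12395 CPM. NK cells held 6287 and 5892 CPM, and the macrophage level was 2.09-fold [2.05–2.13] that of NK cells in WT and 2.31-fold [2.28–2.35] in CD94-KO. Between them lay CD8 T cells at 8014 and 6701 CPM and mregDC, the mature regulatory dendritic cells marked by Ccr7 and Fscn1, at 7147 and 7007. The classes cDC2, other T cells and T cells with IL-17 genes lay at 5287 to 6148 CPM, where their order is not the same in both libraries. Of the smaller classes, regulatory T cells were high (12077 CPM in 55 WT cells, 9425 in 27 CD94-KO cells) and plasmacytoid dendritic cells (pDC) were low (2964 CPM in 45 cells, 3221 in 35). Single cells of a class spread: the macrophage at the 90th percentile had 3.33-fold the summed level of that at the 10th in WT and 3.99-fold in CD94-KO. This was not particular to macrophages. Monocytes (4.9 and 5.12) and mregDC (4.34 and 5.71) spread more, and NK cells (2.83 and 2.96) less.

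**Figure D1:**
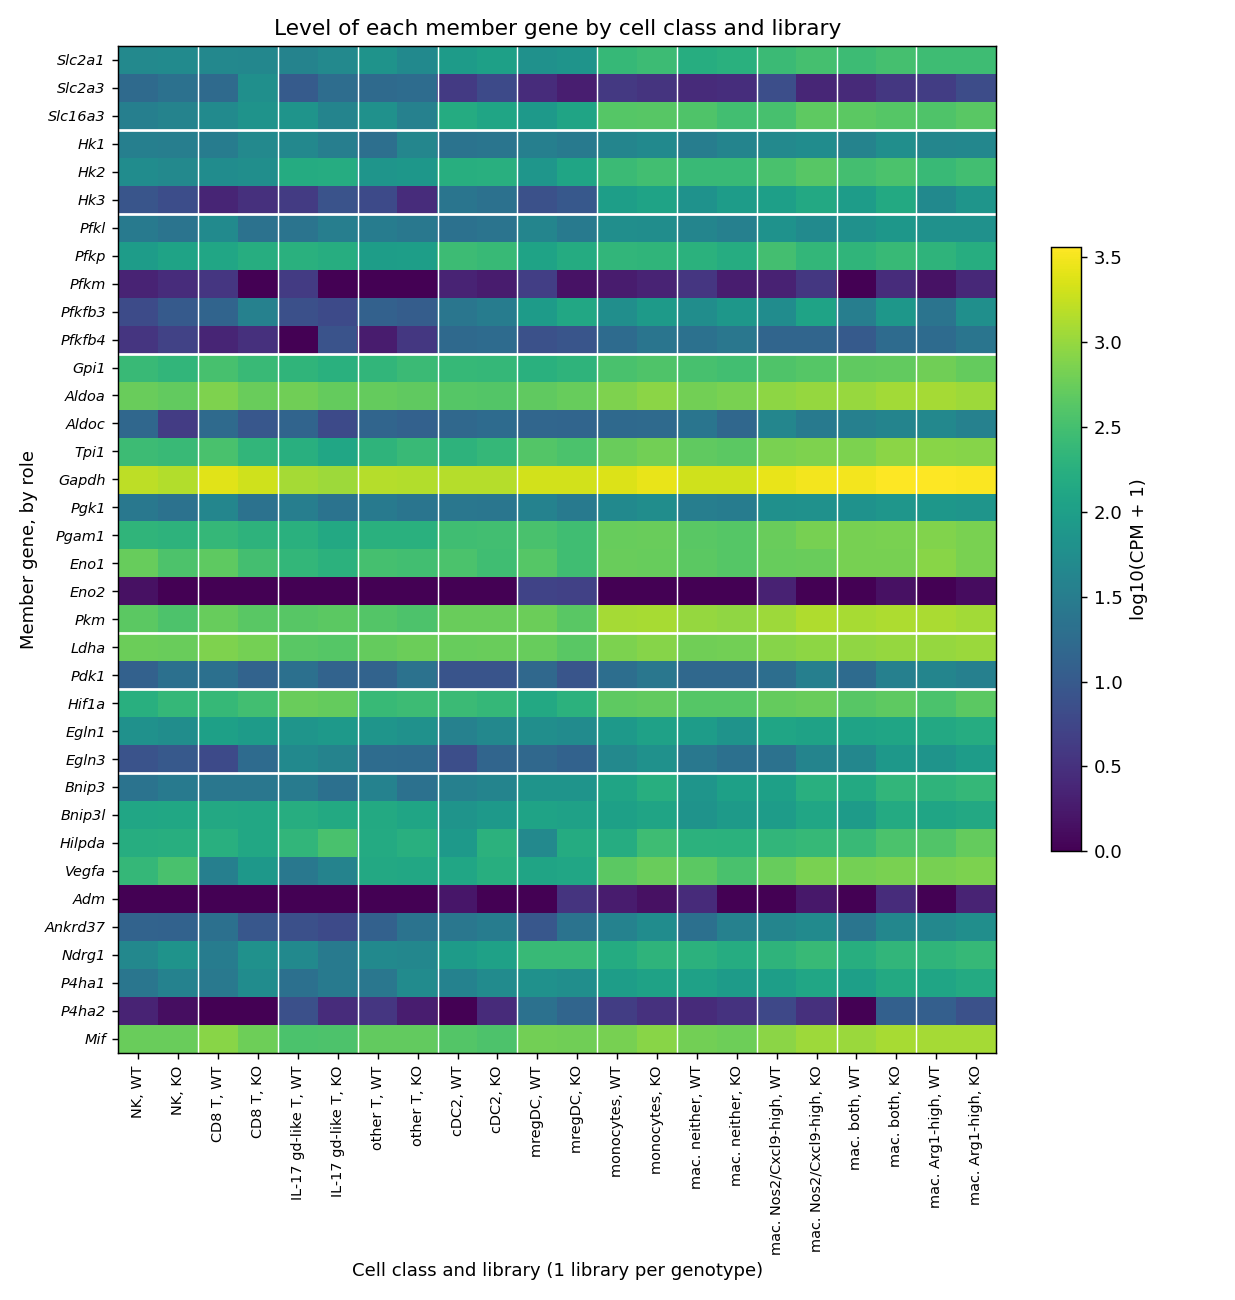
Each row is a gene, grouped by role between the white lines, and each pair of columns a cell class in WT and CD94-KO (1 library each). Colour gives log10(CPM + 1). Gapdh is the brightest row in all classes, and Slc16a3, Hk2 and Hk3 are brighter in monocytes and macrophages than in lymphocytes.

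The single genes differed in which classes held them. Slc2a1, the main glucose importer GLUT1, stood at 253.8 CPM in WT and 275.8 in CD94-KO macrophages, and at 47.04 and 49.35 CPM in NK cells. The lactate exporter Slc16a3 was steeper, with 393 and 409 CPM in macrophages against 33.4 and 38 in NK cells. Slc2a3, encoding the neuronal-type importer GLUT3, had the reverse order, with 16.25 and 20.11 CPM in NK cells and 3.06 and 3.38 CPM in macrophages. Hk3, a hexokinase known from myeloid cells, was at 70.19 and 105.1 CPM in macrophages and at 7.697 and 5.849 CPM in NK cells. Arg1, which NK cells should lack, was counted in them at 29.93 and 69.09 CPM, against 2366 and 3266 CPM in macrophages, and the part of carried-over RNA in such low NK levels was not tested.

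Some members were high outside macrophages. Pfkfb3, whose product makes the activator of phosphofructokinase, was highest in mregDC in both libraries among the 11 classes, at 88.97 CPM in WT and 133.3 CPM in CD94-KO. Hif1a reached 550.9 CPM in WT and 520.1 CPM in CD94-KO IL-17-type T cells, beside the 519.6 and 554.3 CPM of macrophages high for Nos2 and Cxcl9. The small class of regulatory T cells stood higher, at 726.5 and 1040 CPM. NK cells held Vegfa, a growth factor for blood vessels, at 236.5 and 344 CPM, above the 33 and 79.4 CPM of CD8 T cells. Because deep cells show more genes, cells were also thinned to 1000 UMIs each: 20.3% of thinned WT NK cells and 29.9% of CD94-KO NK cells then had a Vegfa UMI, with 74.3% and 80.4% before thinning, against 34% and 39.7% of thinned macrophages. Eno2 and Adm, at 0 or a few UMIs in most classes, could not be followed.

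Macrophages were divided by raw UMIs into 4 states: at least 10 Arg1 UMIs only (Arg1-high, 123 WT and 231 CD94-KO cells), at least 10 Nos2 and Cxcl9 UMIs only (Nos2/Cxcl9-high, 54 and 112 cells), both (52 and 117) and neither (130 and 220). These are ranges along a scale and not cell types: 67 WT and 98 CD94-KO macrophages had 5 to 19 Arg1 UMIs, near the limit. Because all states came from each library, states could be compared with edgeR's quasi-likelihood test on 8 summed profiles, with library as a block. This rests on 2 libraries that also differ in genotype. The p-values below set each contrast against the scatter of all 4 states between those libraries. Spread between the mice within a library is not measured.

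Arg1-high and Nos2/Cxcl9-high macrophages differed in both directions. Egln3, Hilpda and Bnip3 and 2 glycolytic enzymes were higher in the Arg1-high state, and 2 of 3 hexokinases, 2 of 5 genes of the phosphofructokinase step and Hif1a itself were lower. The other hexokinase, Hk1, stood at -0.27 on the log2 scale (edgeR adjusted p = 0.507), and Pfkl and Pfkfb4 stood at 0.12 and 0.56 (edgeR adjusted p = 0.801 and 0.326). Of 34 genes with enough counts, 5 were called higher (Egln3, Hilpda, Bnip3, Gpi1, Eno1) and 5 lower (Hk2, Hk3, Pfkp, Pfkfb3, Hif1a) at an adjusted p under 0.05. Over all 10205 genes tested, 2.86% were called higher and 5.11% lower. The median log2 fold change of the 34 genes was 0.19, beside 0.03 over all genes.

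Egln3, a HIF target that itself hydroxylates HIF, had the largest rise of the 5. It stood at 68.82 CPM in Arg1-high and 20.83 CPM in Nos2/Cxcl9-high macrophages of WT, and at 91.43 and 39.89 CPM in CD94-KO. The ratios were 3.3 [1.99–5.83] and 2.29 [1.72–3.1], and the log2 fold change was 1.31 with an edgeR adjusted p of 0.0028. Hilpda, which holds back the breakdown of lipid droplets, was at 388.8 against 216.9 CPM in WT and 528.3 against 242.2 CPM in CD94-KO. Its log2 fold change was 0.94 with an edgeR adjusted p of 0.000168. Both libraries thus placed Egln3 and Hilpda higher in the Arg1-high state. Bnip3, a receptor for removal of mitochondria, was at 202.6 against 105.4 CPM in WT and 231.2 against 175.7 CPM in CD94-KO, with a log2 fold change of 0.58. Its edgeR adjusted p was 0.0193.

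Hk3 fell by 1.08 on the log2 scale, with an edgeR adjusted p of 0.000143. It was at 47.64 CPM in Arg1-high and 101.7 CPM in Nos2/Cxcl9-high macrophages of WT, and at 71.46 and 140.0 CPM in CD94-KO. Pfkfb3 was at 22.62 against 52.69 CPM in WT and 58.35 against 115.5 CPM in CD94-KO, a fall of 1.13 (edgeR adjusted p = 0.0023). In each library both genes had about 2 times the level in the Nos2/Cxcl9-high state. Hk2 (log2 fold change -0.53), Pfkp (-0.57) and Hif1a (-0.46) changed less, with ratios of 0.66 to 0.748 in WT and 0.701 to 0.822 in CD94-KO. Gpi1 and Eno1, which catalyse an early isomerisation and the step before pyruvate kinase, both rose by 0.43.

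Direction was shared by most of the other genes, at small size. Of 32 genes measured in both libraries, 21 were higher in the Arg1-high state in both, 6 were lower in both and 5 had opposite directions. The share of all genes with a shared direction was not counted, so these counts have no background. Aldoa, Tpi1, Gapdh, Pgk1, Pgam1 and Ldha had ratios of 1.2 to 1.37 in WT and 1.05 to 1.16 in CD94-KO and did not pass the test. Vegfa had a ratio of 1.26 [1.13–1.4] in WT and 1.03 [0.951–1.11] in CD94-KO. The transporters Slc2a1 and Slc16a3 had ratios of 1.06 and 1.16 in WT but 0.879 and 0.943 in CD94-KO. At least 1.5-fold in both libraries were Egln3, Hilpda and P4ha2 upward and Hk3 and Pfkfb3 downward, 3 and 2 of the 32, where 5.91% and 5.12% of 7515 genes measured in both libraries passed. P4ha2, a collagen prolyl hydroxylase subunit, rests on 23 against 4 UMIs in WT and 21 against 3 in CD94-KO.

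**Figure D2:**
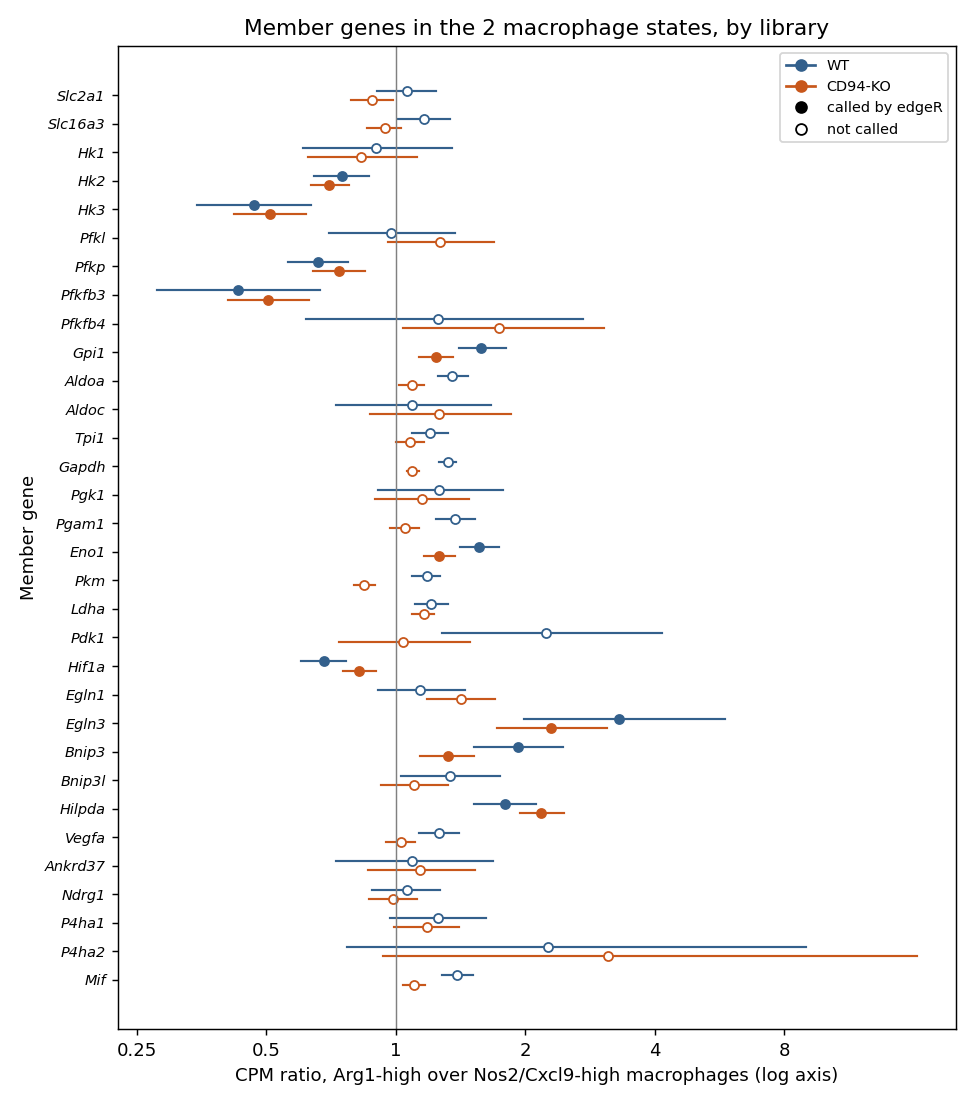
Points give the CPM ratio of Arg1-high over Nos2/Cxcl9-high macrophages (log axis) in WT and CD94-KO, with lines for 95% counting intervals. Filled points mark the 10 genes called by edgeR, of which Egln3 lies farthest to the right and Pfkfb3 and Hk3 farthest to the left. P4ha2 rests on few UMIs.

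Markers of monocytes moved with these states. Ly6c2, Hp and Plac8 together stood at 793 CPM in Arg1-high and 3136 CPM in Nos2/Cxcl9-high macrophages of WT, and at 1284 and 4593 CPM in CD94-KO. Median depth was 15436 and 13185.5 UMIs in WT and 11834 and 12207 in CD94-KO, so the deeper state was not the same in both libraries. The part of monocyte-like cells in the result was not tested. The result does depend on the block: without library in the model 3 genes were called, and with monocytes added to the states 18 were.

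Both activated states exceeded the macrophages with neither marker. Arg1-high macrophages had 21 genes higher and 0 lower than the neither state, where 3.58% of all genes were called higher and 4.52% lower. All 9 tested genes of middle and lower glycolysis were among them, with a median log2 fold change of 0.83, as were Ldha (0.74) and Pdk1 (1.37), which holds pyruvate back from the citric acid cycle. Nos2/Cxcl9-high macrophages had 17 higher and 0 lower (1.94% and 1.02% of all genes), and cells with both markers had 21 and 0 (2.4% and 1.94%). None was called lower in the 3 contrasts under edgeR. The number called depends on the limit: at an unadjusted p under 0.05 there were 26, 28 and 27 genes. The share of all genes at that unadjusted limit was not counted, so these counts have no background. Those counts include falls: Pfkfb3 (-0.68) and Hk3 (-0.37) in the Arg1-high state. Pfkfb4 fell in the Nos2/Cxcl9-high state (-0.7) and in cells with both markers (-0.67).

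Which genes rose depended on the state. Gapdh rose in each of the 3 contrasts, by 0.84, 0.63 and 0.82 on the log2 scale. Hk2 and Hk3 rose in the Nos2/Cxcl9-high state, by 0.68 and 0.71, while in the Arg1-high state Hk2 stood at 0.15 and Hk3 at -0.37 and neither passed (edgeR adjusted p = 0.482 and 0.145). Hilpda and Egln3 rose in the Arg1-high state by 1.29 and 1.91, and stood at 0.35 and 0.61 in the Nos2/Cxcl9-high state (edgeR adjusted p = 0.237 and 0.392). Hif1a and Pfkp rose in the Nos2/Cxcl9-high state by 0.46 and 0.69 (edgeR adjusted p = 0.0223 and 0.013). In the Arg1-high state they stood at 0.0 and 0.13 (edgeR adjusted p = 0.991 and 0.684). Their lower level in the direct contrast thus went with a rise in the Nos2/Cxcl9-high state, not with a fall below neither macrophages. The direct contrast of the states above tests these differences. Slc2a1 rose in all 3, by 0.78, 0.89 and 0.88. Monocyte markers moved here too: Ly6c2, Hp and Plac8 stood at 2835 CPM in WT and 4091 CPM in CD94-KO neither macrophages, above the 793 and 1284 CPM of the Arg1-high state, and their part was not tested. The neither state was also the shallowest, with median depths of 7877.5 and 9316 UMIs. With states set on UMIs per 10000, 18 genes were called for the Arg1-high state, all of them among the 21.

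Lists of neighbouring pathways were read from the same 4 contrasts. Of 13 tested citric acid cycle genes, 0 were called by edgeR in the 4 contrasts and 0 had an unadjusted p under 0.05. Among 7 pentose phosphate genes, Tkt was called once in the 4 contrasts, at 0.35 in Arg1-high against neither. Of 21 tested further HIF pathway genes, 4 were higher and 0 lower in Arg1-high against Nos2/Cxcl9-high macrophages: Tfrc, the transferrin receptor (1.95), Mxi1 (0.69), Fam162a (0.55) and Cited2 (0.52). Against neither, 5 were higher, among them Ak4 (2.22), Ddit4 (1.39) and Fam162a (1.34), and Hmox1, the haem-degrading enzyme, fell by 1.23. The medians of that list were -0.10 and 0.10, and 17 and 15 of its genes were not called. Hmox1 also fell against neither in Nos2/Cxcl9-high macrophages (-1.05) and in cells with both markers (-0.87). Fam162a rose in the same contrasts (0.79 and 1.13). Ddit4 was also called in cells with both markers (1.22), and Ak4 in no other contrast. Of 13 tested further glucose and lactate genes, none was called between the 2 marked states. In Arg1-high against neither, Pgm2 rose (1.04) while Slc2a6 fell by 1.05. Pgm2 also rose in the Nos2/Cxcl9-high state (1.13) and in cells with both markers (1.2).

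Macrophages ordered by Arg1 UMIs per 10000 UMIs gave a finer view of the same genes. This is a description, since Arg1 also set the states. The summed level of middle and lower glycolysis was 5232 CPM in WT cells with no Arg1 UMI and 10217 CPM in those with 50 or more, and 6192 and 9334 CPM in CD94-KO. Egln3 went from 14.62 to 112.2 CPM in WT and from 27.92 to 124.6 CPM in CD94-KO, with the highest level in the top bin. Hilpda went from 230 to 526.5 CPM and from 164.7 to 598.8 CPM. Bnip3 went from 70.46 to 269 CPM and from 125.6 to 283.4 CPM. The steps were not even, and some second bins lay below the first. In CD94-KO the second bin stood at 99.42 CPM for Bnip3, 19.73 for Egln3 and 5963 for the glycolysis sum. In WT it stood at 170.5 CPM for Hilpda. Vegfa, Gpi1, Eno1 and Slc2a1 were also highest in the top bin in both libraries: Vegfa at 790.3 and 761.4 CPM, Gpi1 at 693.7 and 586.7, Eno1 at 904.5 and 764.9 and Slc2a1 at 365.6 and 326.2. Hk2 was nearly flat in CD94-KO, between 305.7 and 339.3 CPM. Hif1a and Pfkp, both called lower in the Arg1-high state, had a top bin below the first in WT and above it in CD94-KO. The counting intervals of the first and top bins overlapped for each gene in each library. From the first bin to the top, Hif1a went from 461.3 to 380.1 CPM in WT but from 466.3 to 524.8 CPM in CD94-KO, its highest bin there. Pfkp went from 236.6 to 199.4 CPM in WT and from 180.8 to 203 CPM in CD94-KO. Hk3 had no such climb, at 77.11 and 65.43 CPM in WT and 106.8 and 91.04 CPM in CD94-KO. Pfkfb3 was lower at the top in WT (54.51 and 20.77 CPM) and without order in CD94-KO (60.19 to 101.1 CPM). The top bin was deeper than the first, at medians of 16123 and 9155 UMIs in WT and 12464 and 10584 in CD94-KO. It was also lowest in Nos2 and Cxcl9 together, at 310.5 CPM in WT and 584.7 in CD94-KO, against 1042 and 1261 in the first bin. The bins thus do not vary in Arg1 alone, and the part of Nos2 and Cxcl9 was not tested.

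**Figure D3:**
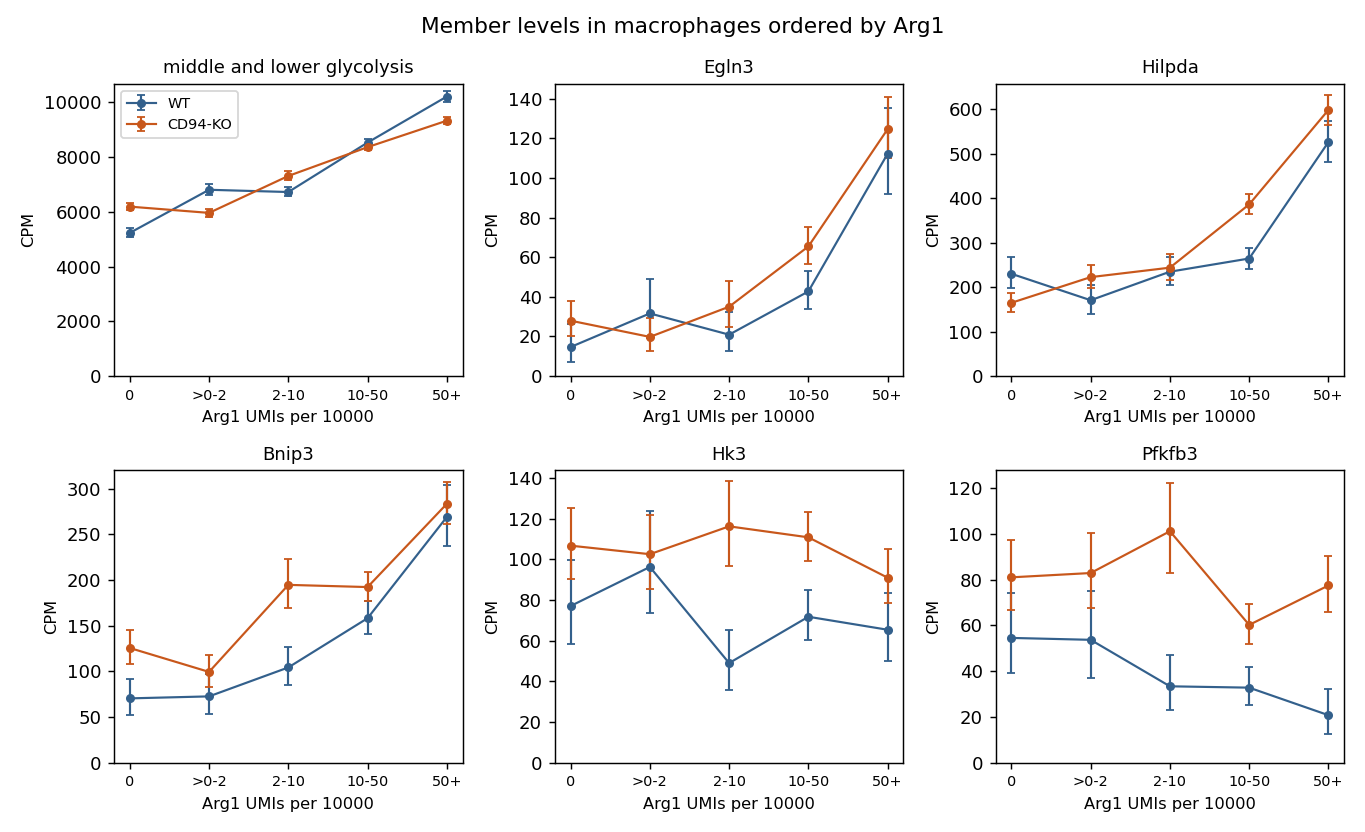
Each panel gives the CPM of a gene or gene group in macrophages binned by Arg1 UMIs per 10000, in WT and CD94-KO, with bars for 95% counting intervals. Egln3, Hilpda, Bnip3 and the glycolysis group are highest in the top bin in both libraries, and Hk3 is not.

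The study concerns anti-tumour immunity without CD94, and the same genes were set side by side by genotype. With 1 library per genotype there is no test, and each difference describes this pair of libraries. Genes with at least 20 UMIs over both libraries count as measured. In macrophages few genes differed: of 34 measured, 2 were at least 1.5-fold higher in CD94-KO (4.86% of all genes) and 0 were at least 1.5-fold lower (6.31%). The median difference in log2(CPM + 5) was 0.09, beside -0.00 over all genes. Alone, the states had medians of 0.08 (Arg1-high), 0.24 (Nos2/Cxcl9-high), 0.23 (both) and -0.07 (neither). Of the 9 measured genes of middle and lower glycolysis, 9 had ratios below 1 in the Arg1-high state and 7 in neither. In the Nos2/Cxcl9-high state and in cells with both markers, 8 of the 9 had ratios above 1. The differences were small, with group medians of -0.15 (Arg1-high), -0.10 (neither), 0.14 (Nos2/Cxcl9-high) and 0.16 (both). Shares of all genes above or below 1 were not counted.

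Pfkfb3 was higher in CD94-KO in most classes. It had 190 UMIs (36.34 CPM) in WT and 672 UMIs (75.63 CPM) in CD94-KO macrophages, a ratio of 2.08 [1.77–2.46]. The ratio was 2.58 [1.86–3.63] in Arg1-high, 2.19 [1.56–3.14] in Nos2/Cxcl9-high, 2.31 [1.62–3.36] in both and 1.41 [1.04–1.92] in neither macrophages, so all 4 states shared the direction. In monocytes Pfkfb3 stood at 55.95 and 85.51 CPM, a ratio of 1.53 [1.35–1.74], and in mregDC its ratio of 1.5 [1.22–1.84] lay just under the 1.5-fold limit before rounding. Over the 11 classes it was above 1 in 9 of the 10 where it was measured and at least 1.5 in 6.

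Hilpda was at 161.6 CPM in WT and 286.8 CPM in CD94-KO monocytes, a ratio of 1.77 [1.65–1.91], and at 290.9 and 359.3 CPM in macrophages, a ratio of 1.24 [1.16–1.31]. It was also higher in cDC2, at 82.81 and 190.3 CPM (2.3 [1.89–2.81]), and in mregDC, at 46.57 and 153 CPM (3.28 [2.56–4.26]). Of the 11 classes, 9 had a Hilpda ratio above 1 and 4 a ratio of at least 1.5. Arg1 moved with Hilpda, at 45.98 and 259.9 CPM in mregDC and 1014 and 1881 CPM in monocytes, and the part of RNA from other cells was not tested. In mregDC 10 cells gave 60.3% and 67.4% of the Hilpda UMIs, and without the 10 cells with the most UMIs of the 36 genes the ratio was 2.63. It was 5.25 with the marker minimums of the gates doubled and 2.06 with each cell weighed the same, so its size is uncertain beyond the counting interval.

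Eno1, which shares sequence with the near-identical copy Eno1b, was below 1 in 10 of 11 classes. It was at 534.5 CPM in WT and 367.4 CPM in CD94-KO NK cells, a ratio of 0.687 [0.632–0.747]. It was at 675.2 and 597.9 CPM in macrophages, 0.886 [0.849–0.924]. In mregDC the ratio was 0.702 [0.629–0.783], and in monocytes 0.978 [0.938–1.02], whose interval holds 1. Of the 24 genes measured in every class, 0 were above 1 in all 11 (1.75% of all genes) and 0 below (1.41%).

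**Figure D4:**
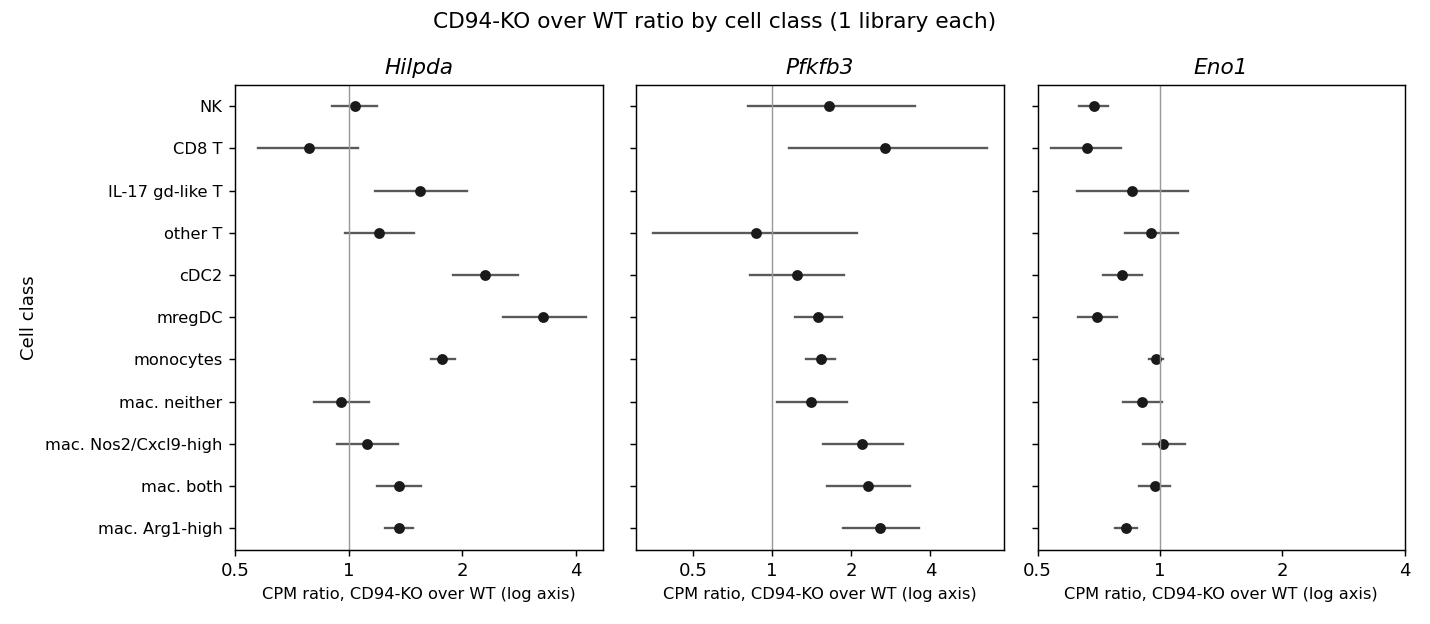
Points give the CPM ratio of CD94-KO over WT (log axis) for Hilpda, Pfkfb3 and Eno1 in each class, 1 library per genotype, with lines for 95% counting intervals. Classes with under 20 UMIs over both libraries have no point. Hilpda is farthest above 1 in mregDC at 3.28, and Eno1 lies at or below 1.02 in all classes.

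The macrophage states differed in how many genes passed 1.5-fold. Cells with both markers had 9 genes higher in CD94-KO and 0 lower, where 8.61% and 8.08% of all genes passed. Among the 9 were the mitophagy receptors Bnip3 (145.4 and 219 CPM, 1.51 [1.26–1.8]) and Bnip3l (88.09 and 147.6 CPM, 1.68 [1.34–2.11]), Egln3 (43.22 and 78 CPM, 1.8 [1.31–2.51]), Hk3 (93.08 and 145.2 CPM, 1.56 [1.25–1.95]) and Ankrd37 (23.27 and 43.43 CPM, 1.87 [1.21–2.96]). P4ha2, at 0 UMIs in WT and 24 in CD94-KO, was another. Arg1 itself stood at 2247 CPM in WT and 3698 CPM in CD94-KO cells with both markers. In Arg1-high macrophages it stood at 4487 and 6405 CPM. The part of this Arg1 difference in the genotype ratios was not tested. In the Nos2/Cxcl9-high state 4 were higher and 0 lower (9.52% and 10.8% of all genes), with Bnip3 at 105.4 and 175.7 CPM, a ratio of 1.67 [1.3–2.16]. The Arg1-high state had 2 higher and 1 lower (8.37% and 6.9%), and the neither state 2 and 1 (8.59% and 8.62%), with Bnip3 at 70.73 and 106.1 CPM. Bnip3 in the Arg1-high state was at 202.6 and 231.2 CPM, so the genotype difference was smallest where its level was highest. Hk3 over all macrophages had a ratio of 1.5 [1.33–1.69], just under the limit before rounding.

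Monocytes had 29 of 34 genes above 1, with a median of 0.18 beside 0.02 over all genes. Pfkfb3 and Hilpda were at least 1.5-fold higher (6.33% of all genes) and P4ha2, on 20 and 26 UMIs, lower (4.01%). In cDC2 the median was 0.08 beside 0.03, with 2 higher (9.52%) and 0 lower (6.45%): Hilpda, and Egln3 on 10 and 31 UMIs. In mregDC the median was -0.02 beside -0.06, with 3 higher (9.96%) and 2 lower (19.6%). One of the 3 was Hk2, the inducible hexokinase, at 73.44 and 122.3 CPM, a ratio of 1.67 [1.34–2.08].

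In NK cells, the class in which CD94 is best known, 31 genes were measured. At least 1.5-fold higher in CD94-KO were 3 genes (12.9% of all genes) and 1 was lower (3.95%), with a median difference of -0.03 beside 0.10 over all genes. The roles differed in direction on the CPM scale. All 9 measured genes of middle and lower glycolysis and all 3 hexokinases had ratios below 1, with medians of -0.20 and -0.17. All 3 transporters (median 0.17) and 6 of 8 other HIF target genes (median 0.17) had ratios above 1. These upward medians lay near the 0.10 of all genes, and the share of all genes above 1 was not counted. P4ha1, a collagen prolyl hydroxylase subunit, was at 23.95 and 36.92 CPM, a ratio of 1.54 [1.1–2.18]. Vegfa was at 236.5 and 344 CPM, a ratio of 1.45 [1.31–1.62]. Pdk1 (27 and 53 UMIs) and Pfkfb3 (13 and 25 UMIs) were higher and Aldoc (34 and 9 UMIs) lower, all on few counts. With TMM scaling the median of the 31 genes was -0.16 beside -0.03 over all genes. The medians by role are given without that scaling. Arg1 in these NK cells was at 29.93 CPM in WT and 69.09 CPM in CD94-KO, and the part of carried-over RNA was not tested.

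T cells had few counts. In CD8 T cells, from 70 and 50 cells, 6 genes were at least 1.5-fold higher (16.2% of all genes) and 5 lower (8.58%), with a median of -0.19 beside 0.09. All 8 measured genes of middle and lower glycolysis had ratios below 1 (median -0.38), and the 2 measured hexokinases had ratios above 1 (median 0.31). Tpi1 was at 339.3 and 217.3 CPM (0.64 [0.505–0.807]) and Eno1 at 468.7 and 309.2 CPM (0.66 [0.541–0.801]), but 10 cells held 56.8% and 69.2% of the Tpi1 UMIs. In T cells with IL-17 genes 1 gene was higher (15.3%) and 3 lower (8.65%), with a median of -0.16 beside 0.06. The 1 was Hilpda, at 222.3 and 343.2 CPM. In the remaining T cells 4 were higher (12.5%) and 2 lower (7.32%), among them Slc16a3, at 62.44 and 35.64 CPM, a ratio of 0.571 [0.376–0.856]. Their median was -0.04 beside 0.07, and -0.29 when barcodes with macrophage transcripts were kept among them.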

How the data were processed

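The deposited values are raw UMI counts per gene and barcode, whose headers name Cell Ranger 5.0.0 (per the file headers). The submitters' processing notes list build mm10 and Seurat 4.0. The annotation release is not given in the sources used here. Barcodes with at least 500 UMIs, 300 genes and under 10% mitochondrial UMIs were kept. Scrublet (scanpy 1.11.5) marked 1 and 0 barcodes by itself, so the 4% with the highest scores were removed per library.

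Classes came from summed raw marker UMIs. The members, lists and markers were chosen with earlier results of these data known. The gates went through 3 versions. The first changes followed class sizes and depth. The last was made after member values had been seen, because CD4 T cells carried much Arg1: T, NK, B and pDC barcodes with at least 4 macrophage marker UMIs, 10 Arg1 UMIs, 10 Nos2 and Cxcl9 UMIs or 20 neutrophil marker UMIs were set aside as mixed. The earlier version is given as an alternative. CD4 T cells then had 46 CD94-KO cells and were not compared.

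UMIs were summed per class and library. Ratios have exact conditional binomial intervals, levels exact Poisson and shares exact Clopper-Pearson intervals, at 95%. State contrasts used edgeR 4.0.16 (TMM, genes with at least 20 UMIs, Benjamini-Hochberg over all genes), checked on simulated counts, with DESeq2 1.42.0 as an alternative. Replicate libraries were not available for genotype, so no test was made there. Named genes were those at least 1.5-fold in both libraries between states, or between genotypes with at least 100 UMIs, and up to 4 called genes of each other list. Genes outside that rule, the Arg1 bins, the contrasts against neither and the promoter search were chosen after values were seen. Gapdh, Ldha, Pgk1, Pgam1, Mif and Aldoa have pseudogene copies, so their single values are less certain.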

Additional observations from a re-analysis of the deposited data

Results flagged for a closer look

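Chosen were genes whose ratio went one way in 1 library or macrophage state and the opposite way in another, with both counting intervals away from 1. The differences themselves were not tested.

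Pkm, encoding pyruvate kinase, had a ratio of 1.18 in WT and 0.845 in CD94-KO for Arg1-high over Nos2/Cxcl9-high macrophages. For CD94-KO over WT, Pkm was at 0.917 in Arg1-high and 1.28 in Nos2/Cxcl9-high macrophages. In the same pair of states Gapdh was at 0.951 and 1.15, and Pgam1 at 0.903 and 1.19. Aldoa was at 0.891 in Arg1-high macrophages and 1.14 in cells with both markers. Slc16a3 was at 0.788 in neither and 1.43 in Nos2/Cxcl9-high macrophages, and Vegfa at 0.768 and 1.3 in the same states.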

How the results depend on the processing

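Between Arg1-high and Nos2/Cxcl9-high macrophages, 10 genes were called. With library out of the model (no replicate block) 3 were called, and with monocytes added to the states, chosen after seeing the data, 18. The other 10 alternatives stayed within 1.5 times, and Egln3, Hilpda and Hk3 passed in all 12. DESeq2 lost Gpi1 and Bnip3. The Nos2/Cxcl9-high count against neither went from 17 to 26 with monocytes added.

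No paired analysis was possible because each genotype had 1 library. The macrophage median of 0.09 was 0.08 in the Arg1-high state, 0.24 in the Nos2/Cxcl9-high state, 0.23 in both and -0.07 in neither alone. The NK median of -0.03 was -0.16 with TMM and with median of ratios scaling, and 0.04 with doubled gate minimums. The mregDC median of -0.02 was 0.05 with TMM and 0.06 with median of ratios scaling. Hilpda in NK cells went from 1.04 to 0.949 with TMM scaling. In mregDC its ratio of 3.28 was 5.25 with doubled gate minimums and 2.06 with each cell weighed the same.

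The level of macrophages over NK cells, 2.09 in WT and 2.31 in CD94-KO, was 2.02 and 2.15 with doubled gate minimums and 2.33 and 2.71 with each cell weighed the same. Keeping lymphoid barcodes with myeloid UMIs, the earlier version of the gates, gave 2 in WT and 2.25 in CD94-KO, and an NK median of -0.05. That version moved the median of the remaining T cells from -0.04 to -0.29. The causes were not tested. Genes with few UMIs, such as Slc2a3, Pfkm, P4ha2, Eno2 and Adm, are limited by depth.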
